A study of Mus musculus with 14 samples.

Results

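In hematopoietic progenitors (HP), the repressor GFI1B occupied 2018 sites of the mouse genome, and 853 of them lay at the promoters of protein-coding genes. These 853 peaks are described here. Membership required a centre no more than 2 kb from where a curated RefSeq coding transcript begins (its transcription start site, TSS) on the genome build mm10 (GRCm38). They made up 42.3% of the GFI1B list (exact 95% interval 40.1% to 44.5%), out of 158488 peaks in the 14 lists analysed, and the other 1165 GFI1B peaks were called distal. The promoter peaks pointed to 905 of the 21000 coding genes, or 4.31%.

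The study followed blood formation from strain 129 mouse embryonic stem cells that carried a Brachyury-GFP reporter, and mapped factors by chromatin immunoprecipitation and sequencing (ChIP-seq). The labels name no treatment or gene deletion in any group. Mesoderm (MES, GFP-positive and Flk1-negative) was profiled for C/EBPβ and ELK4, and hemangioblast (HB, GFP- and Flk1-positive) for C/EBPβ and GATA2. Hemogenic endothelium (HE, GFP-positive, Tie2+, cKit+ and CD41-) was profiled for C/EBPβ, and HP (CD41+) for C/EBPβ, GATA1, GATA2, GFI1B, RUNX1 and PU.1. Macrophages (MAC, CD11b+) grown from the CD41+ cells were profiled for C/EBPβ, RUNX1 and PU.1. All populations came from 1 line differentiated in culture, and HP were defined by CD41 alone. Each of these groups had 1 list with no scores, read counts or replicates. Tests therefore compare sets of peaks within these lists, not conditions, their p-values treat peaks as independent, and the depth behind a peak is unknown.

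GFI1B is a zinc finger protein that binds DNA through its C-terminal fingers and carries a short N-terminal SNAG domain. Through this domain it recruits the histone demethylase LSD1 with CoREST and histone deacetylases, which silence nearby genes. It is known for its roles in erythroid and megakaryocytic cells and, with its paralog GFI1, for shutting down endothelial genes when the first blood cells form. Both paralogs recognise DNA with an AATC core.

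In many of the GFI1B promoter peaks this core was followed, after a few bases, by a GC pair. The consensus searched was any of 8 words, AATCACAGC, AATCACTGC, AATCAGAGC, AATCAGTGC, AATCTCAGC, AATCTCTGC, AATCTGAGC or AATCTGTGC, on either strand. The following 10 sites show it at promoters of blood, signalling and chromatin genes, read from RefSeq GRCm38 on the strand of the match, with the match in capitals.
Gata2 (chr6:88199879-88199907, plus strand): gatccacaggAATCTGAGCagctgcgaaa
Id1 (chr2:152734843-152734871, plus strand): gcacacctgtAATCTCAGCgaaggaatcc
Id3 (chr4:136143559-136143587, plus strand): ttttttttcaAATCTGTGCtggctcaaga
Bcl2l11 (chr2:128128174-128128202, plus strand): agccgcctgcAATCTCTGCatctgcgccc
Crebbp (chr16:4213374-4213402, plus strand): gcggcggccaAATCTCAGCctcagcaaca
Brd2 (chr17:34121220-34121248, plus strand): cattccggaaAATCACTGCgccccagtca
Myh9 (chr15:77842313-77842341, minus strand): ggggaggatgAATCTCAGCactccggctt
Epb41 (chr4:132050140-132050168, plus strand): gctggttcacAATCTCAGCccagcctcag
Nos3 (chr5:24365776-24365804, plus strand): gtgggagtaaAATCAGAGCagaggaatcc
Grb2 (chr11:115699502-115699530, plus strand): tcctcttttcAATCTCAGCcccaggcgac
In all of these the middle of the match lay within 39 bp of the peak centre, and at Myh9 it lay 3 bp away. A peak in an intron of Tspan7, 1109 bp downstream of the TSS of this tetraspanin gene, held 2 of the words on opposite strands within 50 bp, AATCAGTGC on the plus and AATCACTGC on the minus strand, printed here on the plus strand with both matches in capitals.
Tspan7 (chrX:10486211-10486260): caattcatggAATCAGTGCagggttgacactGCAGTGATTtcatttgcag

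At least 1 of the 8 words was present in 270 of the 853 promoter peaks, or 31.7% (exact 95% interval 28.5% to 34.9%). In windows of the same 400 bp width centred on 25999 coding TSSs the share was 2.94%, and in windows 2 kb to either side of the promoter peaks it was 4.04%. The distal GFI1B peaks held it in 21.6% (19.3% to 24.1%), so that the promoter peaks carried the consensus more often by 10.0 percentage points (adjusted exact p = 1.0e-06, Fisher's exact test, two-sided, Benjamini-Hochberg over 14 consensus sequences). The excess remained past the threshold when the search was narrowed to the central 200 bp, when the TSS distance was 1 kb or 5 kb, and among CpG-poor peaks. The stricter word AATCACNGC, with N for any base, was found in 13.4% of promoter peaks, 7.81% of distal peaks and 1.10% of coding promoters.

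Most of the promoter peaks that held the consensus had a single match. The 278 matches fell in 262 peaks with 1 match and 8 with 2. The commonest words were AATCTCAGC with 58 matches, AATCACAGC with 53 and AATCACTGC with 42, and the rarest was AATCTGAGC with 13. In all coding promoters the commonest word was a different one, AATCAGAGC, which made up 23.6% of matches there and 8.27% in the promoter peaks.

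The matches were gathered at the middle of the peaks. Of the 278 matches, 211 (75.9%, 70.4% to 80.8%) had their middle within 40 bp of the peak centre, and 130 (46.8%) within 20 bp. Distal peaks had 71.1% (65.4% to 76.4%) of their matches within 40 bp, an interval that overlaps that of the promoter peaks. Around the TSS of all coding promoters only 23.7% of matches lay within 40 bp. Matches had no clear orientation toward the gene, with 127 of 278 on the strand of the nearest gene. Because peaks were centred on their summits, the offset is measured from the summit as the authors' software placed it.

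**Figure D1:**
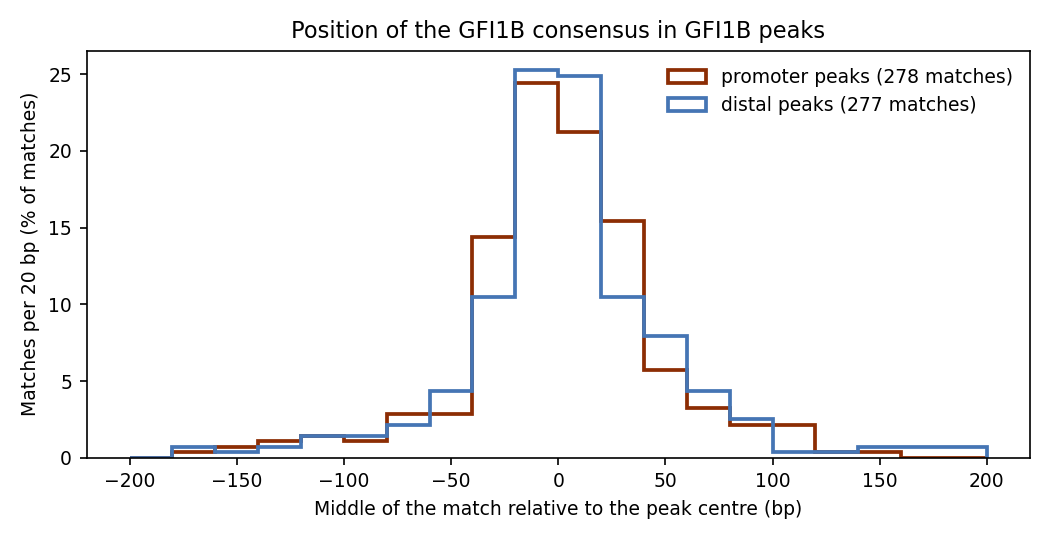
Position of the GFI1B consensus in GFI1B peaks, as the middle of each match relative to the peak centre in bp, in 20 bp bins as a percentage of the matches in 853 promoter peaks (278 matches) and 1165 distal peaks (277 matches). Both sets rise to a single maximum at the centre, with 75.9% and 71.1% of matches within 40 bp.

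Some of the promoter peaks without any of the 8 words held a looser form of the sequence, AATCNNNGC, a search chosen after the data were seen. It was present in 177 of the 583 promoter peaks without a word (30.4%, 26.6% to 34.3%), against 22.8% of distal peaks, 10.3% of coding promoters and 16.4% of flanking windows that also lacked the words. Of its 205 matches in these promoter peaks, 99 (48.3%) lay within 40 bp of the centre, against 20.1% around the TSS in such coding promoters. Peaks with a word included, the looser form was in 447 promoter peaks (52.4%), 39.5% of distal peaks and 13% of coding promoters. Examples without a word are the peaks of Pecam1, an adhesion molecule of endothelium and platelets, and of Rbbp7, a histone-binding subunit of deacetylase complexes.
Pecam1 (chr11:106715573-106715601, plus strand): atagagtgtaAATCTGGGCctcctatcct
Rbbp7 (chrX:162759910-162759938, minus strand): tctcccagatAATCACGGCcacgcagttt

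The promoter peaks sat close to the start of their genes. The median distance from the centre to the nearest coding TSS was 325 bp, 303 peaks (35.5%) lay within 200 bp and 535 (62.7%) within 500 bp, while 133 (15.6%) were more than 1000 bp away. They were placed on both sides, with 446 upstream of the TSS, 402 downstream and 5 on it. By position, 390 centres (45.7%) were outside coding transcripts, 274 (32.1%) were in introns, 157 (18.4%) in the untranslated part of an exon and 32 (3.75%) in coding sequence. The distance rule itself fixes much of this pattern. A single gene had its TSS within 2 kb of 765 peaks and a pair of genes of 88, and 36 genes had 2 peaks.

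**Figure D2:**
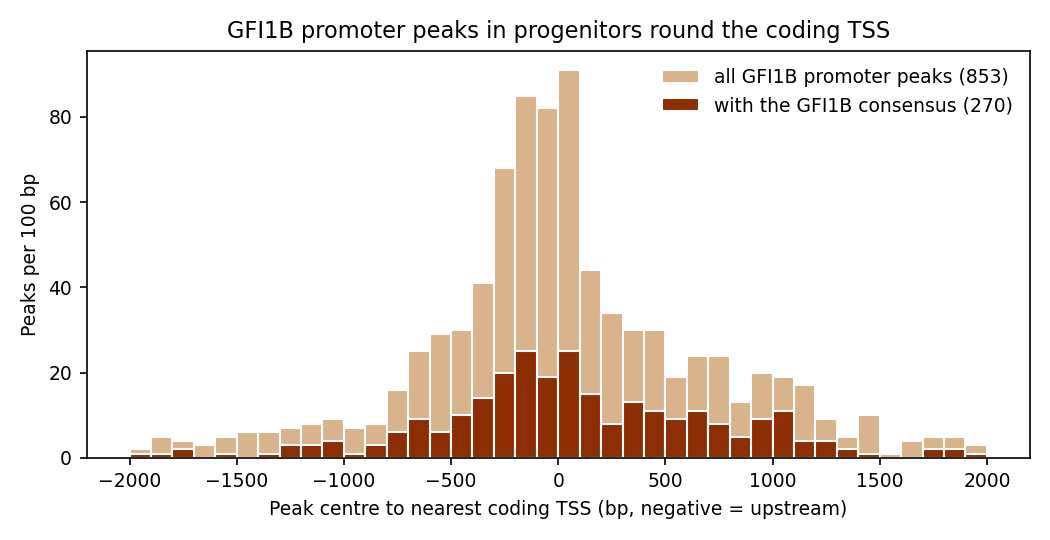
Distance from the centre of each of the 853 GFI1B promoter peaks to the nearest coding TSS in bp, negative upstream, as peaks per 100 bp. The 270 peaks with the GFI1B consensus are drawn over all peaks, and both are densest around the TSS, where 303 peaks lie within 200 bp.

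The share with the consensus ranged along this distance. It was lowest just upstream of the TSS, with 45 of 172 peaks (26.2%) from 200 bp upstream to the TSS, and highest with 42 of 100 peaks (42.0%) between 500 and 1000 bp downstream. In the other distance ranges it lay between 28.6% and 34.6%, and a dependence on distance was not tested. CpG-rich sequence, defined as at least 50% GC with an observed over expected CpG ratio of at least 0.6, made up 468 of the 853 peaks (54.9%), 67 of the 1165 distal peaks (5.75%) and 50.9% of all coding promoters. The GFI1B consensus was in 29.1% (25% to 33.4%) of the CpG-rich promoter peaks and in 34.8% (30.1% to 39.8%) of the CpG-poor ones.

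Some other consensus sequences, GATA and RUNX among them, divided promoter and distal GFI1B peaks more sharply. Of the 14 searched, that of GFI1B included, 11 differed between the sets, 7 being more frequent at promoters and 4 less frequent. The 4 less frequent ones were GATA, RUNX, the E-box and AP-1. The GATA consensus (AGATAAG or AGATAAC) was in 76 promoter peaks (8.91%) and 368 distal peaks (31.6%; adjusted exact p = 8.0e-36). For the RUNX consensus TGTGGTT these shares were 9.03% and 20.7% (adjusted exact p = 2.0e-12), for the E-box CAGATG bound by TAL1 dimers 18.8% and 28.9% (adjusted exact p = 4.4e-07), and for the AP-1 consensus (TGACTCA or TGAGTCA) 4.69% and 11.8% (adjusted exact p = 3.9e-08), all by Fisher's exact test. The promoter peaks were nonetheless above all coding promoters for GATA, with 4.73% there, and for RUNX, with 5.44%, although their own flanks held GATA in 9.79% and RUNX in 9.44%. For the E-box, the flanks of promoter peaks held 24.9% and those of distal peaks 29.4%. The distal peaks were thus near their flanks for the E-box and the promoter peaks below theirs. For AP-1 the flanks held 6.98% and 6.48%.

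The consensus sequences that were more frequent at promoters than at distal peaks were, apart from that of GFI1B, those of general promoter factors. The SP/KLF sequence GGGCGGG was in 290 promoter peaks (34.0%) against 7.38% of distal peaks (adjusted exact p = 2.8e-51), and the NFY sequence CCAATCA in 9.61% against 5.58% (adjusted exact p = 9.6e-04). The ETS sequence CCGGAAGT stood at 5.04% against 1.46% (adjusted exact p = 5.8e-06), the NRF1 sequence GCATGCGC at 3.99% against 0.773% (adjusted exact p = 1.9e-06) and the CRE TGACGTCA at 2.70% against 0.258% (adjusted exact p = 3.1e-06). The YY1 sequence AAGATGGCG was in 1.06% against 0.258% (adjusted exact p = 0.045), all by Fisher's exact test. All coding promoters held SP/KLF in 38.9%, NFY in 9.23%, ETS in 5.45%, NRF1 in 3.67%, CRE in 2.46% and YY1 in 2.52%, so that only the GFI1B share of the promoter peaks was several times that of coding promoters at large. Among CpG-poor peaks the differences for ETS, NRF1, NFY and YY1 were no longer called, with adjusted exact p from 0.063 to 1.0, and within the central 200 bp NRF1 (0.14) and YY1 (0.50) were not called either. The SP/KLF difference fell from 26.6 points to 15.8 in the central 200 bp and 11.9 among CpG-poor peaks, that of CRE from 2.44 to 1.59 and 1.38, and in the central 200 bp those of NFY from 4.03 to 2.41 and AP-1 from -7.16 to -4.72, all still called. The PU.1 sequence GAGGAAGT (4.81% against 6.35%, adjusted exact p = 0.16), the C/EBP sequence (TTGCACAA, TTGCATAA, TTGCGCAA or TTGCGTAA; 2.70% against 2.75%, adjusted exact p = 1.0) and the ZFP143 sequence ACTACAAT (0.938% against 0.343%, adjusted exact p = 0.16) did not pass the same two-sided Fisher's exact test, although ZFP143 was called among CpG-poor peaks (adjusted exact p = 0.041) and at 5 kb (adjusted exact p = 0.025). All coding promoters held PU.1 in 3.57%, C/EBP in 2.11%, the E-box in 17.8%, AP-1 in 5.15% and ZFP143 in 0.800%. The PU.1 and ETS sequences end in the same letters, and the NFY sequence holds the AATC core, with 18 of the 278 GFI1B matches sharing bases with an NFY match.

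**Figure D3:**
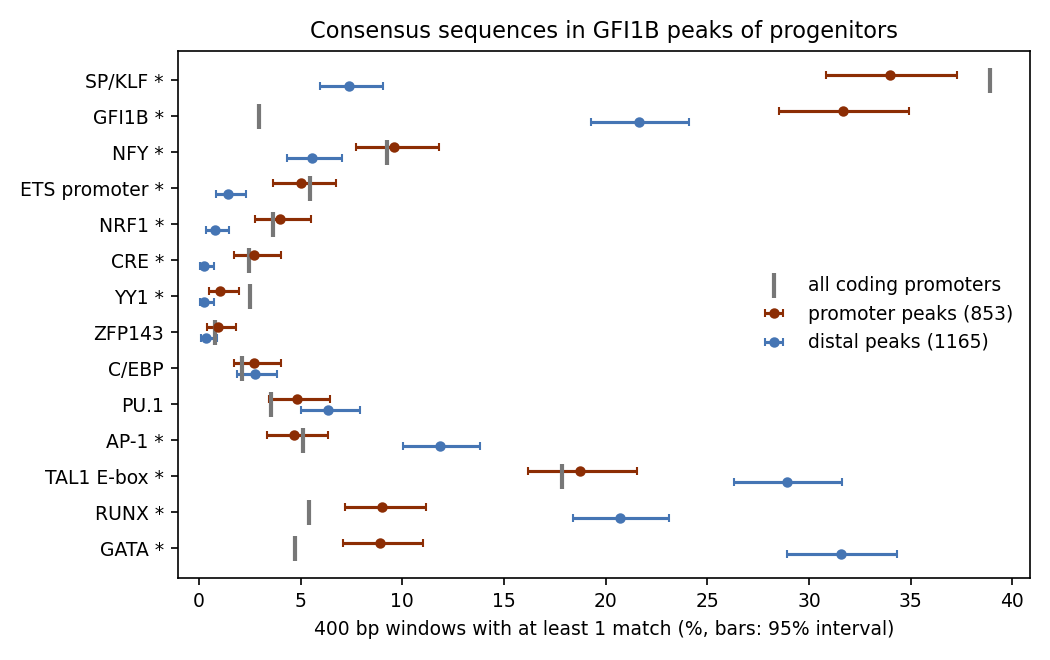
Share of 400 bp windows with at least 1 match to each of 14 consensus sequences, in percent, for the 853 promoter and 1165 distal GFI1B peaks with exact 95% intervals and for all coding promoters (grey ticks). Asterisks mark an adjusted p below 0.05 between promoter and distal peaks, and the GFI1B consensus, at 31.7%, is far above its 2.94% in coding promoters.

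The other 13 lists were then laid over the same promoters, counting a shared base as an overlap. Within HP, 171 of the 853 promoter peaks (20.0%) and 323 of the 1165 distal peaks (27.7%) overlapped at least 1 of the 5 other HP lists, a difference that was not tested as such. Of the promoter peaks, 682 overlapped none of these lists, 139 overlapped 1, 25 overlapped 2, 6 overlapped 3 and 1 overlapped 4. Overlap with GATA2, a zinc finger activator of stem and progenitor cells, was found at 19 promoter peaks (2.23%) against 102 distal peaks (8.76%; adjusted exact p = 9.6e-10). GATA1, the erythroid and megakaryocytic member of that family, was at 17 (1.99%) against 75 (6.44%; adjusted exact p = 4.1e-06). Both come from two-sided Fisher's exact tests, with p adjusted over the 13 lists. The GATA1 and GATA2 lists met each other at 10 of these promoter peaks, and 26 promoter peaks overlapped at least 1 of them.

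The other 3 HP lists, which are longer, overlapped more of the GFI1B promoter peaks. As a share of their own peaks the order was different, with 6.86% of the RUNX1, 6.80% of the GATA1, 3.58% of the GATA2, 1.44% of the C/EBPβ and 0.631% of the PU.1 peaks at GFI1B promoter peaks. PU.1, a myeloid and lymphoid regulator of the ETS family, was at 69 promoter peaks (8.09%) and 141 distal peaks (12.1%; adjusted exact p = 0.010, Fisher's exact test). This difference was not called when predicted transcripts were added to the TSS set (adjusted exact p = 0.060) or among CpG-poor peaks (adjusted exact p = 0.13). RUNX1, a core factor of blood formation, was at 67 (7.85%) and 108 (9.27%; adjusted exact p = 0.35), and C/EBPβ at 39 (4.57%) and 67 (5.75%; adjusted exact p = 0.35). Among CpG-poor peaks, a subset examined after the data were seen, the RUNX1 overlap was lower at promoters by 4.95 percentage points (adjusted exact p = 0.0057, Fisher's exact test).

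The long macrophage lists behaved in the opposite way. PU.1 in MAC overlapped 416 promoter peaks (48.8%, 45.4% to 52.2%) and 372 distal peaks (31.9%, 29.3% to 34.7%; adjusted exact p = 2.8e-13), and C/EBPβ in MAC 277 (32.5%) and 253 (21.7%; adjusted exact p = 3.1e-07, Fisher's exact test). When an overlap needed 200 bp, the difference fell from 16.8 to 5.49 percentage points for PU.1 (adjusted exact p = 0.020) and from 10.8 to 5.22 for C/EBPβ (adjusted exact p = 0.011). Among CpG-poor peaks it was 10.8 points for PU.1 (adjusted exact p = 9.1e-04) and 4.70 for C/EBPβ, no longer called (adjusted exact p = 0.13). Together they touched 510 of the 853 promoter peaks, 183 of them in both lists, and for 353 peaks these lists and RUNX1 in MAC were the only other lists. The MAC PU.1 overlap was densest near the TSS, at 104 of 172 peaks (60.5%) from 200 bp upstream to the TSS and 17 of 56 (30.4%) beyond 1000 bp upstream. These lists hold 82866 and 55471 peaks, and 423 of the MAC PU.1 peaks (0.510%) and 278 of the MAC C/EBPβ peaks (0.501%) were at GFI1B promoter peaks.

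Lists of the earlier populations touched few GFI1B promoter peaks. ELK4 in MES was at 15 (1.76%) against 9 distal peaks (0.773%; adjusted exact p = 0.13), C/EBPβ in MES at 14 (1.64%) against 11, C/EBPβ in HB at 13 (1.52%) against 16 and C/EBPβ in HE at 1 (0.117%) against 8. RUNX1 in MAC was at 5 (0.586%) against 9. GATA2 in HB was at 0 of the 853 promoter peaks, where 3 peaks would be 0.352%, and at 4 distal ones. None of these 6 passed Fisher's exact test, with adjusted exact p between 0.13 and 0.85. With a TSS distance of 1 kb, ELK4 was called, higher at promoters by 1.39 percentage points (adjusted exact p = 0.023). Over all 13 lists, 319 promoter peaks (37.4%) and 605 distal peaks (51.9%) overlapped no other list.

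**Figure D4:**
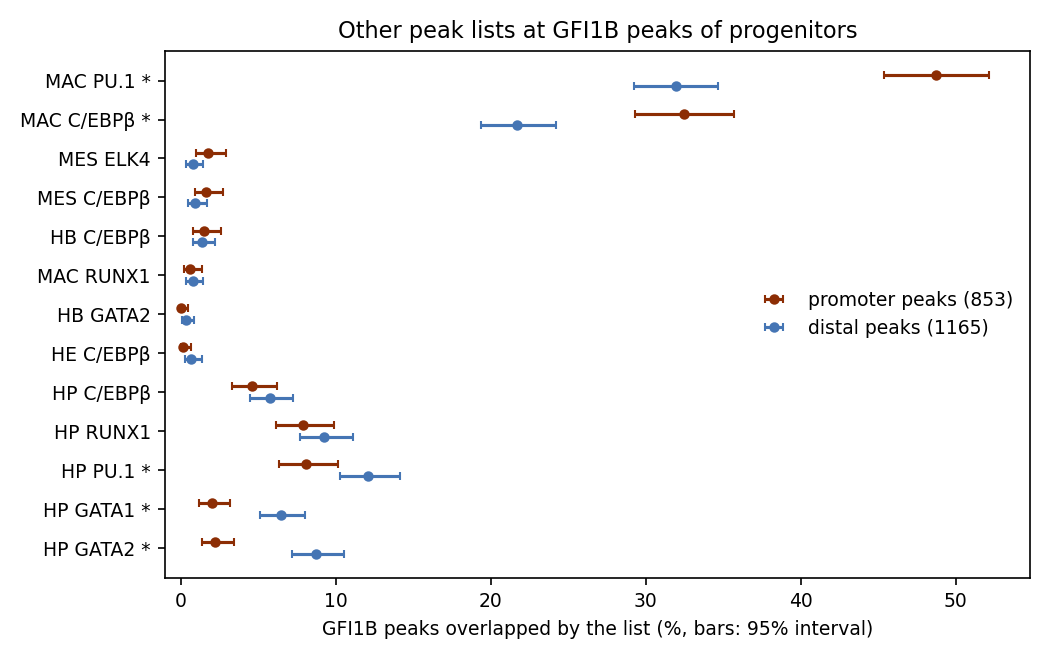
Share of the 853 promoter and 1165 distal GFI1B peaks that overlap a peak of each of the 13 other lists, in percent with exact 95% intervals. Asterisks mark an adjusted p below 0.05, with PU.1 and C/EBPβ in MAC more frequent at promoters and GATA1, GATA2 and PU.1 in HP less frequent.

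The GFI1B consensus was less frequent in promoter peaks where other HP factors also bound. Among the 682 promoter peaks that overlapped no other HP list, 240 (35.2%, 31.6% to 38.9%) held the consensus, whereas among the 171 that overlapped at least 1 the number was 30 (17.5%, 12.2% to 24.1%). The difference of 17.7 percentage points was tested after the data were seen (adjusted exact p = 5.7e-06, Fisher's exact test, adjusted over promoter and distal peaks). Leaving out each HP list in turn left it between 12.1 points, without RUNX1, and 22.1 points, without PU.1, and it was 17.1 points among CpG-rich and 17.7 points among CpG-poor peaks. By list, the consensus was in 6 of 67 promoter peaks with RUNX1 (8.96%), 2 of 17 with GATA1, 4 of 19 with GATA2, 7 of 39 with C/EBPβ and 17 of 69 with PU.1 (24.6%). The distal peaks had a difference of 13.2 points of the same sign (adjusted exact p = 9.1e-07, Fisher's exact test). With the MAC lists, the consensus was in 116 of 416 promoter peaks with PU.1 (27.9%, 23.6% to 32.5%). It was in 75 of 277 with C/EBPβ in MAC (27.1%, 21.9% to 32.7%). Both shares were below the 31.7% of all promoter peaks, within intervals that include it, and were not tested.

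By gene, the background is the share of all 21000 coding genes with a peak of the same list within 2 kb of a TSS. Of the 905 GFI1B genes, 163 (18.0%) also had a PU.1 promoter peak in HP, against 9.67% of all coding genes, and 94 (10.4%) had a RUNX1 peak, against 3.20%. For C/EBPβ in HP these values were 82 genes (9.06%) and 4.07%, for GATA2 23 genes (2.54%) and 0.757%, and for GATA1 21 genes (2.32%) and 0.319%. In MAC, PU.1 was at 735 of the genes (81.2%) against 51.4%, C/EBPβ at 587 (64.9%) against 37.7% and RUNX1 at 6 (0.663%) against 0.105%. In the earlier populations, ELK4 in MES was at 32 (3.54%) against 1.92%, C/EBPβ in MES at 29 (3.20%) against 1.72%, C/EBPβ in HB at 22 (2.43%) against 1.08% and C/EBPβ in HE at 4 (0.442%) against 0.148%. GATA2 in HB was at none of them, and at 0.0190% of all coding genes. As a share of the other list, the GFI1B genes were 31.3% of the 67 genes with a GATA1 promoter peak, 14.5% of the 159 with GATA2, 14% of the 672 with RUNX1 and 8.03% of the 2030 with PU.1 in HP.

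Genes of blood-forming transcription factors were the group most often found. Of 50 such genes, 13 (26.0%) had a GFI1B promoter peak, against the 4.31% of coding genes. The list was written with earlier results of these data known, and its count is a description. In the other HP lists, the same 50 genes had promoter peaks of PU.1 in 15 cases (background 9.67%), C/EBPβ in 7 (4.07%), GATA2 in 6 (0.757%), GATA1 in 4 (0.319%) and RUNX1 in 4 (3.20%).

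The genes of both GFI paralogs were among the 13, and they are known to bind each other's promoters. The Gfi1 peak (chr5:107726120-107726519) was centred 515 bp upstream of the TSS and overlapped PU.1 and C/EBPβ in MAC but no other HP list. The Gfi1b peak (chr2:28621821-28622220) lay 39 bp upstream and overlapped PU.1 in both HP and MAC. Neither peak held any of the 8 consensus words, nor AATCNNNGC.

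Partners and activators of the stem cell program came next. Gata2 had a peak in an intron (chr6:88199674-88200073), 1210 bp downstream of a TSS, with 1 consensus match and no other list over it. Lyl1, a helix-loop-helix partner of LMO2, had its peak 1410 bp upstream (chr8:84699847-84700246), shared with PU.1 in HP and MAC, and separate promoter peaks of GATA1, GATA2 and RUNX1. Cbfb, whose product binds RUNX1 and stabilises it on DNA, had one 547 bp downstream (chr8:105171021-105171420) shared with PU.1 in MAC. The Spi1 peak (chr2:91096442-91096841) was 36 bp upstream of the TSS and overlapped PU.1 and C/EBPβ in MAC, while PU.1, RUNX1 and C/EBPβ in HP had promoter peaks at Spi1 that did not touch it.

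The homeobox genes Meis1 and Hhex, both active in early progenitors, had peaks 1533 bp upstream (chr11:19020302-19020701) and 904 and 1886 bp downstream (chr19:37435545-37435944 and chr19:37436527-37436926). The nearer Hhex peak overlapped GATA1 and GATA2 in HP, and was the only peak among the 13 genes to do so. Myb, a regulator of progenitor growth, had its peak 21 bp downstream of the TSS (chr10:21160763-21161162), and neither it nor the peaks of Mycn (84 bp upstream, chr12:12941720-12942119) and Klf2 (237 bp upstream, chr8:72318625-72319024) overlapped any other list. Mycn is a growth-promoting factor and Klf2 responds to blood flow in endothelium. Id1 and Id3, inhibitors of helix-loop-helix factors, had peaks 1354 bp upstream (chr2:152734697-152735096) and 243 bp upstream (chr4:136143379-136143778), each with 1 consensus match. The Id1 peak overlapped no other list, and that of Id3 overlapped PU.1 in HP and MAC and C/EBPβ in MAC. Gata2, Id1 and Id3 were the only ones of the 13 with any of the 8 words.

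**Figure D5:**
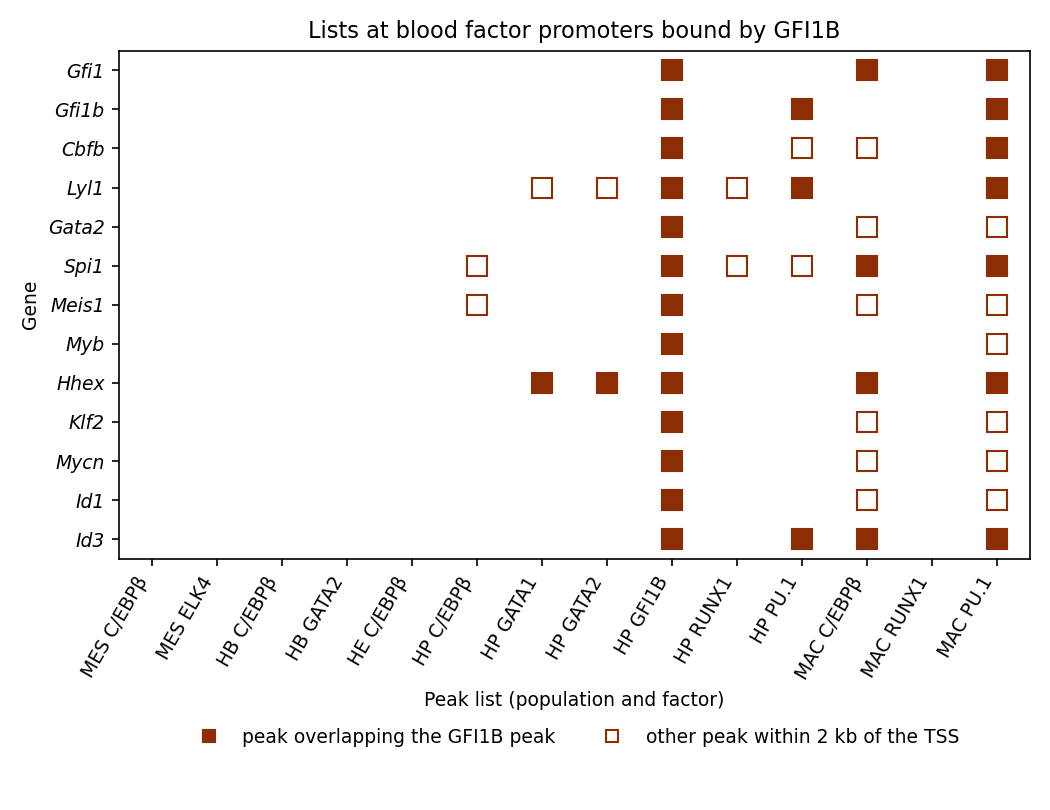
Peak lists at the 13 blood factor genes with a GFI1B promoter peak (rows), over the 14 lists (columns, by population and factor). Filled squares are peaks that overlap the GFI1B peak and open squares are other peaks of that list within 2 kb of the TSS, and no square lies in MES, HB or HE.

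The remaining gene lists each had from 0 to 6 members with a peak. In cytokine signalling there were 6 of 40 (15%), against 4.31% of all coding genes. Among the other HP lists, PU.1 had promoter peaks at 7 of these 40 genes (background 9.67%), RUNX1 at 3 (3.20%) and C/EBPβ at 3 (4.07%). GATA1 had 1 and GATA2 had 0. Jak1 and Tyk2, kinases bound to cytokine receptors, had peaks 612 bp downstream and 90 bp upstream, the latter shared with ELK4 in MES and PU.1 in MAC. The peak of Sh2b3, an adaptor that restrains JAK signalling, was 1985 bp upstream. Grb2, an adaptor of receptor tyrosine kinases, had its peak 4 bp from the TSS with 1 consensus match and PU.1 of HP and MAC over it. Smad4 and Smad7, a shared mediator and an inhibitor of TGF-β signalling, had peaks 833 bp downstream and 427 bp upstream.

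Of 31 apoptosis and p53 pathway genes, 4 (12.9%) had a peak, against 4.31% of all coding genes, and 3 genes would be 9.68%. Among the other HP lists, PU.1 had promoter peaks at 10 of these 31 genes (background 9.67%) and RUNX1 at 4 (3.20%). C/EBPβ and GATA2 had 1 each and GATA1 had 0. Bcl2l11, which encodes the death-promoting protein BIM, had a peak 625 bp downstream of the TSS, with the match printed above and PU.1 and C/EBPβ of MAC over it. Gadd45a had its peak centred on the TSS and overlapping GATA2 in HP, Gadd45g had one 187 bp upstream, and both are stress-induced growth arrest genes. The peak of Sesn1, a p53 target, was 7 bp downstream.

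Components of the GFI1B repressor machinery were bound in 2 of 28 cases (7.14%), near the 4.31% of all coding genes, and 3 genes would be 10.7%. Gse1, a subunit found with LSD1 and CoREST, had a peak 1683 bp upstream of a TSS (chr8:120486983-120487382) that overlapped GATA1, GATA2 and RUNX1 in HP. It had no GFI1B word but 1 RUNX match. Rbbp7 had a peak 412 bp upstream. Among chromatin modifiers there were 3 of 49 (6.12%), also near the 4.31% of all coding genes. They were the Polycomb subunit Eed, the acetyltransferase Crebbp and the acetyl-lysine reader Brd2. The Eed peak, 768 bp downstream, overlapped RUNX1 and PU.1 in HP, whereas those of Crebbp and Brd2, 15 bp upstream and 516 bp downstream, each had 1 consensus match and no other list.

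Lineage genes were near the background of 4.31% of all coding genes. Erythroid genes had 3 of 46 (6.52%), namely the membrane skeleton gene Epb41 with 2 peaks, the coactivator gene Cited2 with 2 and the antioxidant gene Prdx2, whose peak 1469 bp downstream overlapped GATA1 and no other list. Megakaryocyte genes also had 3 of 46 (6.52%). The peak of F2rl3, which encodes a thrombin receptor of platelets, lay 82 bp upstream and overlapped GATA2 and PU.1 in HP, that of the myosin gene Myh9 lay 156 bp upstream with a consensus match, and that of Mrtfa, an actin-regulated coactivator, lay 79 bp upstream. Endothelial genes had 3 of 44 (6.82%), Pecam1, the secreted regulator Egfl7 and the nitric oxide synthase gene Nos3, whose peak 963 bp downstream held 1 match and overlapped PU.1 in HP and MAC.

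Myeloid genes had 1 of 39 (2.56%), against 4.31% of all coding genes. It was Mpo, the peroxidase of neutrophil granules, with a peak 311 bp upstream that overlapped PU.1 in HP and MAC. By comparison, 22 of these 39 genes had a PU.1 promoter peak in HP, against 9.67% of all coding genes. Interferon and innate immune regulators had 2 of 27 (7.41%), against the same 4.31%. They were the NF-κB gene Nfkb1 and the receptor gene Ifngr2. Their peaks, 789 bp downstream and 1418 bp upstream, overlapped PU.1 and GATA2 in HP, respectively. None of 41 cell cycle and growth genes had a GFI1B promoter peak, against 4.31% of all coding genes, and 3 genes would be 7.32%.

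Gene families were taken by symbol and read against the same 4.31% of coding genes. Zinc finger genes had 31 of 467 (6.64%, 4.55% to 9.29%), splicing factors 6 of 70 (8.57%), tripartite motif genes 5 of 68 (7.35%), cytosolic ribosomal proteins 5 of 84 (5.95%) and mitochondrial ribosomal proteins 4 of 78 (5.13%). Solute carriers had 16 of 389 (4.11%) and respiratory chain subunits 4 of 95 (4.21%). The symbols of small GTPases, which also took in their effectors and regulators, gave 21 of 223 (9.42%, 5.92% to 14%). The intervals of zinc finger genes and of this mixed set lay above the background, and those of the other families named so far included it. Further families were counted, with shares from 1.96% (proteasome subunits) to 5.71% (aminoacyl-tRNA synthetases), and their intervals included the background as well. The intervals were not adjusted for the number of families. No peak was found at 1107 olfactory receptor genes, 112 keratin and keratin-associated genes, 64 histone genes or 56 translation initiation factors, where the upper limits were 0.333%, 3.24%, 5.60% and 6.38%.

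The promoter peaks shared with the most other lists overlapped 5 or 6 of the 13. The peak 149 bp upstream of Mylk3 (chr8:85380990-85381389), which encodes a cardiac myosin kinase, overlapped 6 other lists, C/EBPβ, GATA1, GATA2 and RUNX1 in HP as well as PU.1 and C/EBPβ of MAC. It had no GFI1B word, but 2 GATA matches. Peaks at Arid5a, Ccdc114, Erich1, Got1, Hnrnpl, Slc38a7 and Ttc21b overlapped 5 lists each. Of these, Got1, Hnrnpl, Slc38a7 and Ttc21b carried C/EBPβ in MES, HB, HP and MAC, and they encode an aspartate aminotransferase, a splicing regulator, an amino acid transporter and a ciliary transport protein. The Erich1 and Ccdc114 peaks carried RUNX1 in both HP and MAC with PU.1 in both. Some of the GATA and RUNX matches in promoter peaks shared with other HP lists, Mpo among them, are shown in the same way. A match did not always go with a list of that factor. The Mpo peak overlapped PU.1 but no GATA1, GATA2 or RUNX1 list, and the nearer Hhex peak overlapped GATA1 and GATA2 without a GATA match. Others, such as the RUNX match at Ttc21b, are not printed.
Mylk3, GATA (chr8:85381074-85381102, minus strand): gacagggtcaaAGATAAGcggaaatacca
Mylk3, GATA (chr8:85381124-85381152, minus strand): cccagcaaagcAGATAACcaagtgaagcc
Gse1, RUNX (chr8:120487097-120487125, plus strand): agcgcacaggaTGTGGTTtggcggcaggg
Erich1, RUNX (chr8:14090504-14090532, plus strand): agctctgctccTGTGGTTtgcggtttgcc
F2rl3, GATA (chr8:72761490-72761518, minus strand): agctcctgtttAGATAACaatccagcctt
Mpo, RUNX (chr11:87793465-87793493, minus strand): gcagagctggtTGTGGTTaatggtcagtt
Mpo, GATA (chr11:87793520-87793548, plus strand): tctctgcctgaAGATAAGaggaaggggct

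The 8 promoter peaks with 2 GFI1B matches belonged to Naa35, Tnks2, Zfp106, Fkbp1a, Czib, Npffr2, Irf2bp1 and Tspan7. None of them overlapped another HP list, which was also true of 240 of all 270 promoter peaks with the consensus. Their genes encode an acetyltransferase subunit, a tankyrase, a zinc finger protein, an immunophilin, a zinc-binding protein, a neuropeptide receptor, a corepressor and a tetraspanin. The starts of the matches were 16 bp apart at Fkbp1a, 21 bp at Tspan7, 29 bp at Npffr2 and from 107 bp at Czib to 243 bp at Tnks2 in the other 5. The single matches nearest to a peak centre, at 0 or 1 bp, included those at the cation channel gene Trpv2, Usp53 of the ubiquitin-specific peptidase family, the F-box gene Fbxl7 and the promoter shared by Fancm, a DNA repair gene, and Fkbp3, an immunophilin gene.

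Of the other HP lists, RUNX1 had the highest promoter share, with 595 of its 977 peaks (60.9%), and 67 promoter peaks of GFI1B overlapped a RUNX1 peak. The 786 GFI1B promoter peaks free of RUNX1 were compared with the 529 RUNX1 promoter peaks free of GFI1B in 16 features. The GFI1B consensus was in 264 of the GFI1B peaks (33.6%) and 11 of the RUNX1 peaks (2.08%; adjusted exact p = 4.6e-52), the latter close to the 2.94% of all coding promoters. GATA (8.78% against 3.78%, adjusted exact p = 8.3e-04) and the E-box (18.7% against 11.9%, adjusted exact p = 0.0022) were also more frequent at GFI1B. At RUNX1 peaks the RUNX consensus was more frequent (13% against 8.27%, adjusted exact p = 0.012), as were ETS (13% against 4.83%, adjusted exact p = 5.3e-07), SP/KLF (56.0% against 33.3%, adjusted exact p = 1.9e-15) and YY1 (3.78% against 1.02%, adjusted exact p = 0.0026), all by Fisher's exact test adjusted over the 16 features. The RUNX1 peaks were also more often CpG-rich, at 86.8% against 53.1% (adjusted exact p = 9.0e-39, Fisher's exact test). Within 200 bp of a TSS lay 67.9% of the RUNX1 and 34.6% of the GFI1B peaks, given as a description because the rule itself uses this distance. Among all GFI1B promoter peaks, the CpG-rich share was 19.6% beyond 1000 bp upstream and 82.4% from the TSS to 200 bp downstream. Whether the differences in sequence between the GFI1B and RUNX1 peaks remain at equal distance or equal CpG content was not tested. AP-1, C/EBP, CRE, NFY, NRF1, PU.1 and ZFP143 did not pass (adjusted exact p from 0.12 to 0.89), although CRE was called at 5 kb, with a GFI1B minus RUNX1 difference of -2.14 points (adjusted exact p = 0.039).

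The last 3 peaks inside the 2 kb rule were at Nr6a1 (1950 bp), Tecpr1 (1951 bp) and Sh2b3 (1985 bp), and the first 3 outside were at Klhl35 (2033 bp), Nipbl (2045 bp) and Bid (2057 bp).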

How the data were processed

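Each deposited list gives only where every peak begins and stops and holds no count or score, so depth is unknown. To make them, the authors trimmed reads (CutAdapt), aligned them to mm10 (Bowtie), kept single-position reads without duplicates (Picard) and ran MACS with the matching population's input. They judged the p-value cutoff of each experiment visually, then sharpened peaks with polyPeak and fixed them at 400 bp, so list lengths are no measure of binding. Tool versions are not given in the sources used here.

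All 14 lists were placed on RefSeq GRCm38, and 0 peaks passed a chromosome end. Peak centres were set against 26032 TSSs of curated coding mRNAs. Overlap needed 1 bp. Consensus sequences were searched on both strands. Intervals are 95% Clopper-Pearson and cover counting error alone. Proportions were compared by two-sided Fisher's exact test with Benjamini-Hochberg adjustment at 0.05. The programs were tested on simulated data.

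The members and gene lists were chosen with earlier results of these data known. Genes were named if they were in 1 of 11 lists with a promoter peak, at the 12 peaks with the most other lists or the 12 with the most consensus matches, or at the 3 peaks on either side of the 2 kb edge, and some of these are not reported here. The listed symbols Ahsp, Mkl1 and Emr1 matched no entry of the annotation and were not analysed here, while the current symbols Mrtfa and Adgre1 stood in the same lists. Sequences on chromosome 18 are not printed. Alternatives changed the TSS distance and set, the overlap, the consensus and the windows. Python 3.11.15, NumPy 2.4.6, SciPy 1.17.1, pandas 2.3.3, pysam 0.24.0 and Matplotlib 3.10.9 were used.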

Additional observations from a re-analysis of the deposited data

How the results depend on the processing

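With a TSS distance of 500 bp there were 535 promoter peaks and 576 genes, and the GFI1B consensus share was 13.4% with the stricter word and 52.4% with the looser one, which was chosen after the data were seen. For the other counts and the consensus difference by HP lists, each alternative kept the number within 1.5 times the reported value or the call on its side of the threshold. Of 182 repeated tests of single lists, consensus sequences and features, 161 kept direction and call, 8 lost the call, 5 gained it and 8 turned in sign. Those that turned were not called in either setting, except YY1, and the cause was not tested. They were, as promoter minus distal share in percentage points, C/EBPβ in HB at -0.0763 (5 kb) and -0.0155 (predicted transcripts added), RUNX1 in MAC at 0.137 (predicted transcripts), the PU.1 sequence at 0.624 and YY1 at -0.182 (CpG-poor peaks) and C/EBP at 0.440 (central 200 bp). As GFI1B-only minus RUNX1-only, AP-1 turned to 0.195 (no peak of the other list within 1 kb) and 0.462 (5 kb). No paired analysis was possible because every group held 1 list. Without read counts or replicates, absence from a list was not told apart from a weak peak below the authors' threshold.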

Other observations

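Genes outside the lists were singled out after their values were seen, so that they describe and support nothing beyond themselves. Several GFI1B promoter peaks lay at receptors and mediators of BMP and activin signals, with Bmpr2 (293 bp downstream of the TSS), Acvr2a (363 bp downstream), Acvr2b (1121 bp downstream, 1 consensus match), Smad1 (176 bp upstream) and the coreceptor gene Rgmb (9 bp downstream, 1 match), none of which overlapped another HP list. Wnt pathway genes with a peak included the feedback inhibitor Axin2 (49 bp upstream), the receptors Fzd1 (98 bp downstream) and Lrp6 (455 bp upstream) and the nuclear effector Tcf7l2 (708 bp downstream), whose peaks overlapped no other list, and the nuclear cofactor Pygo2 (45 bp upstream, 1 match), whose peak overlapped RUNX1 in HP. The repressor genes Snai1 (139 bp upstream) and Snai2 (24 bp upstream), which like GFI1B encode SNAG-domain zinc fingers, each had a peak with 1 consensus match. Cbfa2t3, which encodes the corepressor ETO2, had a peak 214 bp upstream that overlapped GATA2 in HP and another 1883 bp upstream that overlapped GATA2, RUNX1 and PU.1 in HP.

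Among genes of the cytoskeleton and its regulators, chosen in the same way and with no fixed list, Pls3 (62 bp downstream), Sptan1 (225 bp upstream), Add1 (577 bp downstream), Vim (1190 bp downstream) and Actg1 (1839 bp upstream) had a peak with 1 consensus match. The peaks of Tln1 (273 bp upstream), Dstn (323 bp upstream), Tpm4 (1561 bp downstream) and Arhgdib (113 bp upstream) had none. The Vim peak overlapped PU.1 in HP, that of Tln1 RUNX1, and that of Arhgdib GATA2 and PU.1. Of the immediate early genes, the peaks of Fos (1527 bp upstream) and Jund (1024 bp downstream) overlapped RUNX1 in HP, and that of Fosb (418 bp upstream) held 1 consensus match and overlapped no other HP list. The Npas4 peak (782 bp downstream) had no match and overlapped no other HP list.

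The words of 8 letters that most exceeded their share in coding promoters were ranked without reference to any consensus. Of the 30 highest, 25 held AATC and all 30 held ATC, on one strand or the other. The first was AATCTCAG, in 87 promoter peaks (10.2%) against 1.52% of coding promoters. AATCTCGG, in 39 promoter peaks (4.57%) against 14 distal peaks (1.20%), and AATCGGGC, in 36 (4.22%) against 11 (0.944%), hold a CpG and fall outside the 8 words searched. These differences were not tested.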
